A study of Mus musculus with 4 samples.

Results

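Interferon-stimulated genes were followed in mouse hearts after pressure overload, as a set of 36 genes listed by name. A probe named by its transcript was found for 35 of the 36, among 21762 genes with a named probe. The brightest probe stood for each gene, and 34 members were well above background on all 4 arrays, as were 14298 of all genes. No probe was matched to Mx1, and the probe of Oas3 was not well above background on any array, so neither has a value here.

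Each of the 4 conditions had 1 one-colour Agilent array, hybridised with heart RNA pooled from 4 to 6 male C57BL/6J mice. The hearts were taken 2 or 8 weeks after transverse aortic constriction (TAC), which narrows the aorta and loads the left ventricle, or after sham surgery. The labels give an age of 10 weeks at the 2-week time and of 16 weeks at the 8-week time, whereas the methods of the study give 12 weeks of age at surgery. No replicate exists, so no test was possible and every difference below is between 2 pools. RNA of whole hearts was measured, in which fewer cells of a type and less RNA per cell cannot be told apart.

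Interferons are secreted signals of infection and of misplaced nucleic acid. Type I interferons act through the receptor chains Ifnar1 and Ifnar2, and type II interferon (Ifng) through Ifngr1 and Ifngr2. The receptors switch on the kinases Jak1 and Tyk2 or Jak2, which lead to binding of transcription factors, Stat2 and Irf9 among them, at the interferon-stimulated response element. Type II interferon acts mainly through another element, the gamma-activated site. The induced genes encode sensors of foreign RNA and DNA, enzymes that block viral replication, GTPases that attack vacuoles holding microbes, and parts of the antigen presentation machinery. Cardiomyocytes, fibroblasts, endothelial cells and macrophages can all express them.

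The promoters of the members were searched for the cores of the 2 elements named above. The genes were listed as interferon-stimulated, so an excess of these cores goes with that choice and is no separate evidence. RefSeq promoter windows (GRCm38.p6, 250 bases before and 50 after a start site) were at hand for 28 members, in 31 windows. The core of the interferon-stimulated response element, GAAANNGAAA on either strand, lay in 16 of the 31 windows (51.6%), compared with 3.44% of all 32851 windows of the same length. The core of the gamma-activated site, TTCNNNGAA, which reads the same on both strands, lay in 9 of the 31 windows (29.0%), compared with 8.30% of all windows. The 2 motifs can overlap by a few bases, as they did in the window of Bst2. A match of letters is a description and not a measured binding site. The windows of Isg15, Ifit1 and Ifit3 are shown because they hold 3, 2 and 2 copies of the response element core, and those of Igtp and Irgm2 because they hold both cores and belong to the 2 members with the widest swing between the 2 times. Capitals mark the cores, and each sequence runs 5′ to 3′ along the gene's own strand.
Isg15: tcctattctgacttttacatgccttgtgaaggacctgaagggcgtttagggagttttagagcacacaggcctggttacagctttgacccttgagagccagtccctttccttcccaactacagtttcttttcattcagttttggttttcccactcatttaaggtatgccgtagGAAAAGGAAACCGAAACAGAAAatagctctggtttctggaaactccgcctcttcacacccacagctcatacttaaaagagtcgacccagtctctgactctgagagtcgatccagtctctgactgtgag
Ifit1: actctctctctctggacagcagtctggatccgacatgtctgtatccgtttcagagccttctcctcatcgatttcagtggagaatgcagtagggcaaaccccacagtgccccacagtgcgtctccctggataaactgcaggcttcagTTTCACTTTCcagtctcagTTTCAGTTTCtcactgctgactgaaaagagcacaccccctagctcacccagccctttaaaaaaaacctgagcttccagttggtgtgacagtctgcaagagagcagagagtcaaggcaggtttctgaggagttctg
Ifit3: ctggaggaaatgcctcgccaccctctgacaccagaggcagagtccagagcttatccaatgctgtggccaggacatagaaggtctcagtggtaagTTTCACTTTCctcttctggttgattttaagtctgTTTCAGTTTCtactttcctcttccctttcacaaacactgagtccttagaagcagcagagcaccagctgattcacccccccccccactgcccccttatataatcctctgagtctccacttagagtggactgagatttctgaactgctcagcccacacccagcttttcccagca
Igtp: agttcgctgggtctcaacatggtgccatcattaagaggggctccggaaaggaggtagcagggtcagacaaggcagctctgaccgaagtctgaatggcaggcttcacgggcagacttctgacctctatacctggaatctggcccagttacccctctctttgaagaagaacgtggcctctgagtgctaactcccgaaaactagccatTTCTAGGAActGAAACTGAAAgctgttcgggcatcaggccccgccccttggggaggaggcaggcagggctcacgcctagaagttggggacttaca
Irgm2: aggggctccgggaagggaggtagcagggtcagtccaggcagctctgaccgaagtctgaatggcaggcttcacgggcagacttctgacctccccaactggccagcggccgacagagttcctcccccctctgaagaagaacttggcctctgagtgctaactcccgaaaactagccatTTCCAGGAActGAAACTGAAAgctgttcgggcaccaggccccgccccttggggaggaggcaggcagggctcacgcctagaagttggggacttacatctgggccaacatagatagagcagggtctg

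The Isg15 window (chr4:156200769-156201068 on the reverse strand) holds 3 overlapping response element cores, which begin 78, 72 and 66 bases before the start site. The Ifit1 window (chr19:34640639-34640938 on the forward strand) holds 2 cores, 104 and 85 bases before the start. That of Ifit3 (chr19:34583279-34583578 on the forward strand) also holds 2, at 156 and 122 bases. In the windows of Igtp (chr11:58199306-58199605 on the forward strand) and Irgm2 (chr11:58214727-58215026 on the forward strand) a gamma-activated site core stands just before a response element core. The paired cores begin 45 and 34 bases before the start in Igtp, and 75 and 64 bases before it in Irgm2. These 2 windows are identical at 184 of 270 bases (68.1%) when laid over each other without gaps, and share an unbroken run of 61 bases just downstream of the cores.

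**Figure D1:**
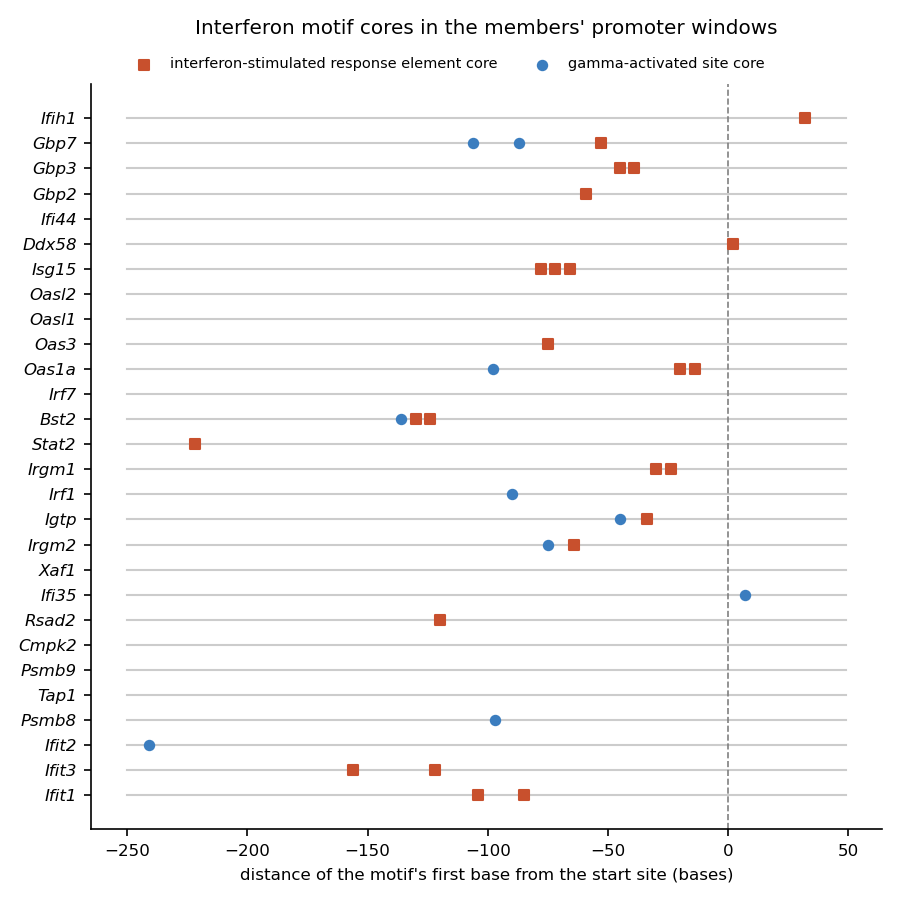
Positions of the 2 motif cores in the promoter windows of the 28 members that have one. The x axis gives the distance of a motif's first base from the start site in bases, squares mark the interferon-stimulated response element core and circles the gamma-activated site core. Genes with 2 windows are drawn on 1 line, each motif placed from its own start site. Most cores lie before the start site, and the lines of Ifi44, Oasl2, Oasl1, Irf7, Xaf1, Cmpk2, Psmb9 and Tap1 are empty.

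The labels were checked with genes that pressure overload is known to raise. Nppa and Nppb, the natriuretic peptides, were higher after TAC by 1.84 and 1.03 on the log2 scale at 2 weeks and by 2.65 and 1.94 at 8 weeks. Myh7 and Acta1, fetal isoforms of myosin and actin, were higher by 2.71 and 3.09 and then by 3.69 and 3.41. All 10 cardiomyocyte markers were well above background on all arrays, as the label of heart tissue requires. The signal at the 75th percentile ranged from 206 to 248 between arrays, all from a single slide and scan, and no spot was saturated. The levels below are signals divided by this percentile of their own array. They may be compared between arrays for 1 gene but not between genes, since probes differ in brightness. As a yardstick of technical error, 2 spots of the same probe on the same array differed with an SD of 0.16 (log2), or 0.29 for dim probes. This yardstick leaves out the spread between mice, pools and arrays.

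At 2 weeks after TAC the set as a whole stood where it did in sham hearts, and at 8 weeks it stood slightly above them. The median change of the 34 measured members was 0.02 (log2) at 2 weeks and 0.29 at 8 weeks, where the median of all genes was -0.01 at both times. At 2 weeks 19 members were higher after TAC and 15 lower (16 to 21 higher under other scalings), and 48.3% of all genes were higher. At 8 weeks 32 members were higher and 2 lower (32 or 33 higher under other scalings), where 48.1% of all genes were higher. The size of the 8-week difference was modest, with quartiles of 0.19 and 0.43 and no member beyond 0.63.

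Only Dhx58 was over 1.5-fold higher at either time, 1 member of 34 where the same rule called 6.80% of all genes at 2 weeks and 7.26% at 8 weeks. The count at 8 weeks was 5 with arrays centred on their median, 9 without normalization and 0 with normexp background correction, and that at 2 weeks was also 0 with normexp. The median of all genes at 8 weeks was itself 0.08 (log2) with median centring and 0.16 without normalization. The share of all genes past 1.5-fold under these settings is not given here. No member was over 1.5-fold lower, where 3.35% and 5.64% of all genes were. Measured against 2 SDs between spots (0.32), 3 members (Oasl2, Rsad2 and Dhx58) were higher and 2 (Igtp and Irgm2) lower at 2 weeks, near the 12.7% and 8.85% found among all genes. At 8 weeks 15 of 34 were higher by this measure, compared with 13.4% of all genes, and only Mx2 was lower, compared with 12.5%. The 8-week difference was thus spread over many members, each by a small amount.

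**Figure D2:**
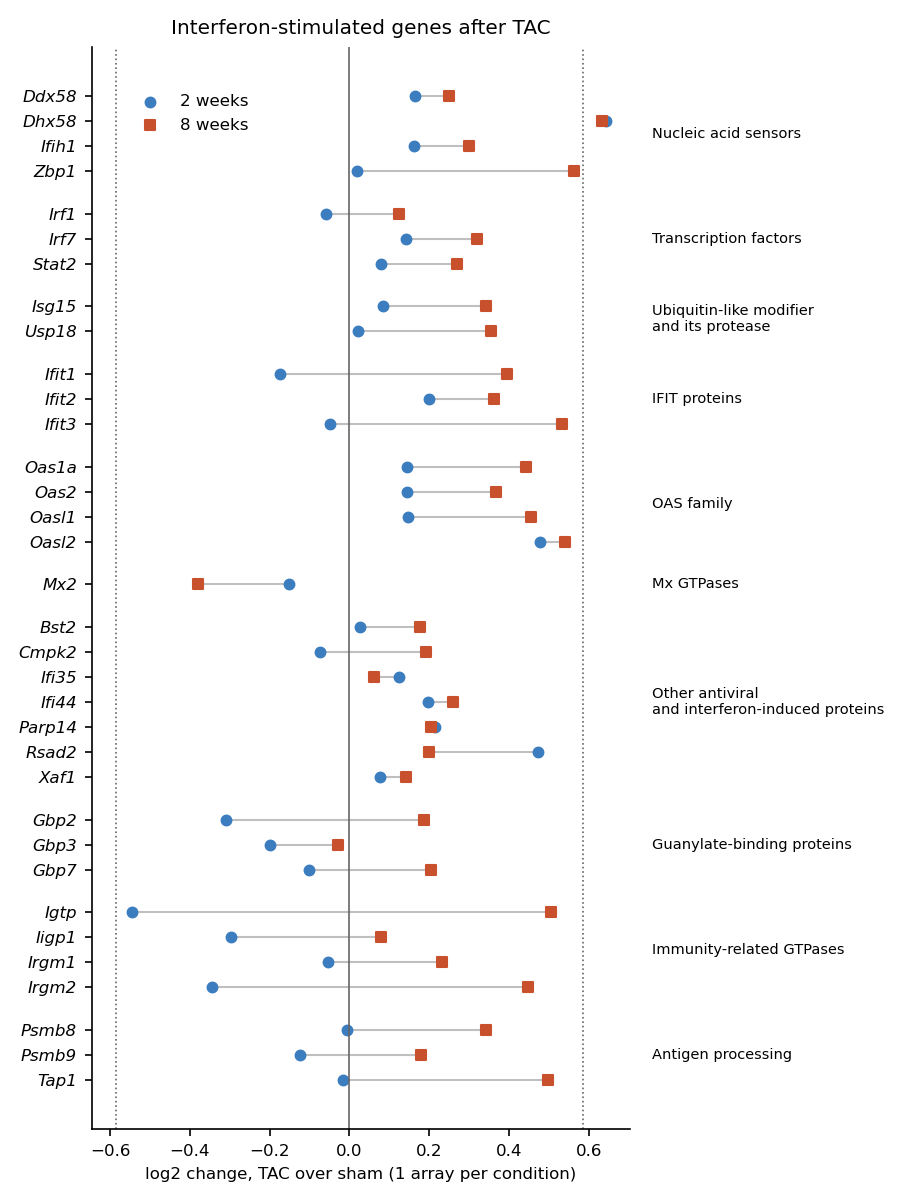
Log2 change of each measured member, TAC over sham, at 2 weeks (circles) and 8 weeks (squares), grouped by role. Each point is the difference of 2 arrays, the solid line is no change and the dotted lines are 1.5-fold. Nearly all squares lie right of the solid line, while the circles of the guanylate-binding proteins and immunity-related GTPases all lie left of it.

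The 2 sham arrays also differed from each other, by a members' median of -0.21 (log2) beside 0.29 for TAC over sham at 8 weeks. In either direction 8 of 34 members differed by more than 2 SDs between spots between the shams. Between TAC and sham at 8 weeks 16 did. Of the 14298 genes measured on all arrays 1640 and 3622 did so in these 2 comparisons. The sham array at 8 weeks gave the lowest value of the 4 arrays for 24 of 34 members, compared with 18.9% of all genes, and the highest value for none, compared with 26.4%. The TAC array at 8 weeks gave the highest value for 15 members, compared with 31.9% of all genes, and that at 2 weeks for 12, compared with 20.2%. Between the 2 sham arrays the median change of the members was -0.21 (log2, 8 weeks over 2 weeks), and only Irf1, Oas2 and Ifi35 were higher at 8 weeks, where 56.0% of all genes were. With other scalings 2 to 4 members were higher there, and 10 without any normalization, where 78.2% of all genes were. No member passed 1.5-fold between the shams in either direction, where 3.80% of all genes were higher and 2.32% lower.

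Between the 2 TAC arrays the median change of the members was 0.08, with 19 members higher at 8 weeks and 15 lower, near the 54.5% of all genes that were higher. Igtp and Irgm2 were over 1.5-fold higher here, where 4.10% of all genes were, and Rsad2 over 1.5-fold lower, where 4.79% were. When the sham arrays were exchanged, a comparison added after seeing these values, TAC at 8 weeks exceeded sham at 2 weeks by a median of 0.10, with 23 of 34 members higher and 51.7% of all genes. TAC at 2 weeks exceeded sham at 8 weeks by a median of 0.25, with 27 members higher and 45.8% of all genes. All 4 comparisons reuse the same 4 arrays, and a lower level in the 8-week sham mice, their age and the array itself cannot be told apart.

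**Figure D3:**
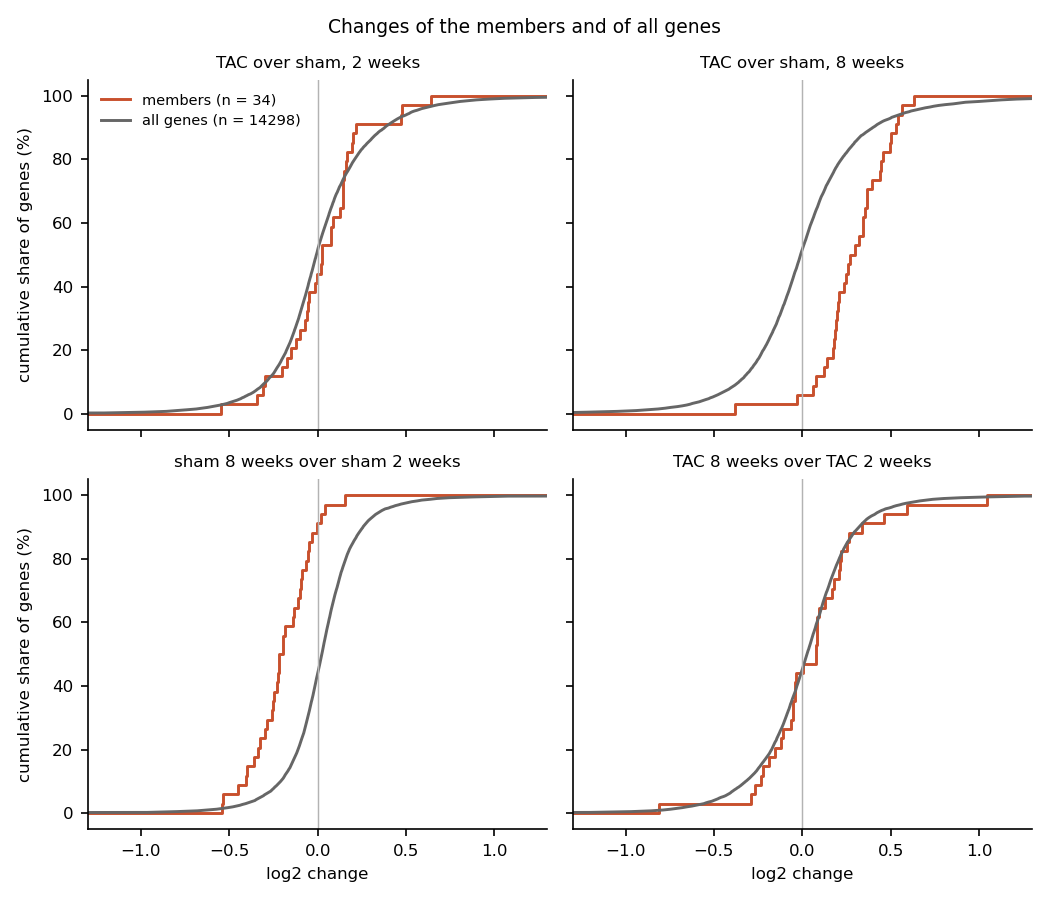
Cumulative share of the 34 measured members (stepped line) and of all 14298 genes measured on all arrays (smooth line) against the log2 change, in 4 comparisons, drawn from -1.3 to 1.3. The members lie right of all genes in TAC over sham at 8 weeks and left of them in sham 8 weeks over sham 2 weeks, and follow them in the other 2 panels.

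The sensors of foreign nucleic acid were higher after TAC in 4 of 4 at both times (3 of 4 at 2 weeks with arrays centred on their median), with medians of 0.16 and 0.43. Of all genes 33.3% were higher at both times. Dhx58, a helicase that tunes the response of the other RNA sensors, had levels of 0.126 in sham and 0.196 in TAC at 2 weeks, and of 0.117 and 0.182 at 8 weeks. Both TAC values lay above both sham values, by 1.56-fold and 1.55-fold, on a dim probe. After normexp background correction the same 2 differences were 0.24 and 0.27 (log2). Ddx58 (RIG-I), which detects viral RNA, was higher by 0.16 and 0.25 (0.05 and 0.66 on a second probe), and Ifih1 (MDA5), which detects long double-stranded RNA, by 0.16 and 0.30. Zbp1, a sensor of Z-form nucleic acid that can trigger necroptosis, had levels of 0.581 and 0.588 at 2 weeks, then of 0.463 and 0.685 at 8 weeks. Its change was thus 0.02 at 2 weeks and 0.56 at 8 weeks, and -0.33 between the shams. A second, dimmer probe differed, with 0.56 at 2 weeks, 0.49 at 8 weeks and 0.59 between the shams. That probe was well above background on 3 of the 4 arrays, the sham array at 2 weeks being the exception.

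The transcription factors differed little. Irf7, which amplifies type I interferon production, was higher by 0.14 at 2 weeks and 0.32 at 8 weeks. Stat2, a subunit of the factor that binds the response element, was higher by 0.08 and 0.27. Irf1, which type II interferon induces strongly, had changes of -0.06 and 0.12, with its highest level on the TAC array at 8 weeks.

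Isg15, a small ubiquitin-like protein that is attached to other proteins, had levels of 7.48 and 7.93 in sham and TAC at 2 weeks and of 6.27 and 7.95 at 8 weeks. On this brightest probe the TAC levels were alike and the shams differed. Usp18, the protease that removes Isg15 and also restrains the type I receptor, followed the same course, at 1.01 and 1.02 and then at 0.850 and 1.09. Their 8-week changes were 0.34 and 0.35.

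The IFIT proteins bind viral RNA and block its translation. Ifit1 had levels of 0.480 in sham and 0.426 in TAC at 2 weeks, and of 0.364 and 0.478 at 8 weeks. Ifit3 had 1.20 and 1.16, then 0.876 and 1.27. For both genes the 8-week sham value stood below the other 3 arrays. Ifit2 differed in being higher at both times, by 0.20 and 0.36. These 3 genes lie in a cluster on chromosome 19, and the probe of Ifit3 may also bind the near-identical Ifit3b, which was measured at -0.05 and 0.60.

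The oligoadenylate synthetases make a messenger that activates an RNA-degrading enzyme, and their relatives Oasl1 and Oasl2 resemble them in sequence. The 4 measured genes were higher after TAC at both times, as were 33.3% of all genes, with medians of 0.15 and 0.45. Oasl2 had levels of 1.64 in sham and 2.29 in TAC at 2 weeks, and of 1.33 and 1.94 at 8 weeks, so that both TAC values lay above both shams. Oas1a was higher by 0.14 and 0.44, Oas2 by 0.14 and 0.37, and Oasl1 by 0.15 and 0.46. For Oas1a a near-identical copy, Oas1g, was not above background on any array.

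Mx2, a dynamin-like antiviral GTPase, went the other way, chiefly at 8 weeks. Its levels were 0.603 in sham and 0.542 in TAC at 2 weeks, and 0.576 and 0.442 at 8 weeks. Both TAC values lay below both shams, with changes of -0.15 and -0.38 (log2). The 2-week change lay within the SD between spots (0.16). After normexp background correction the same 2 changes were -0.03 and -0.24.

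**Figure D4:**
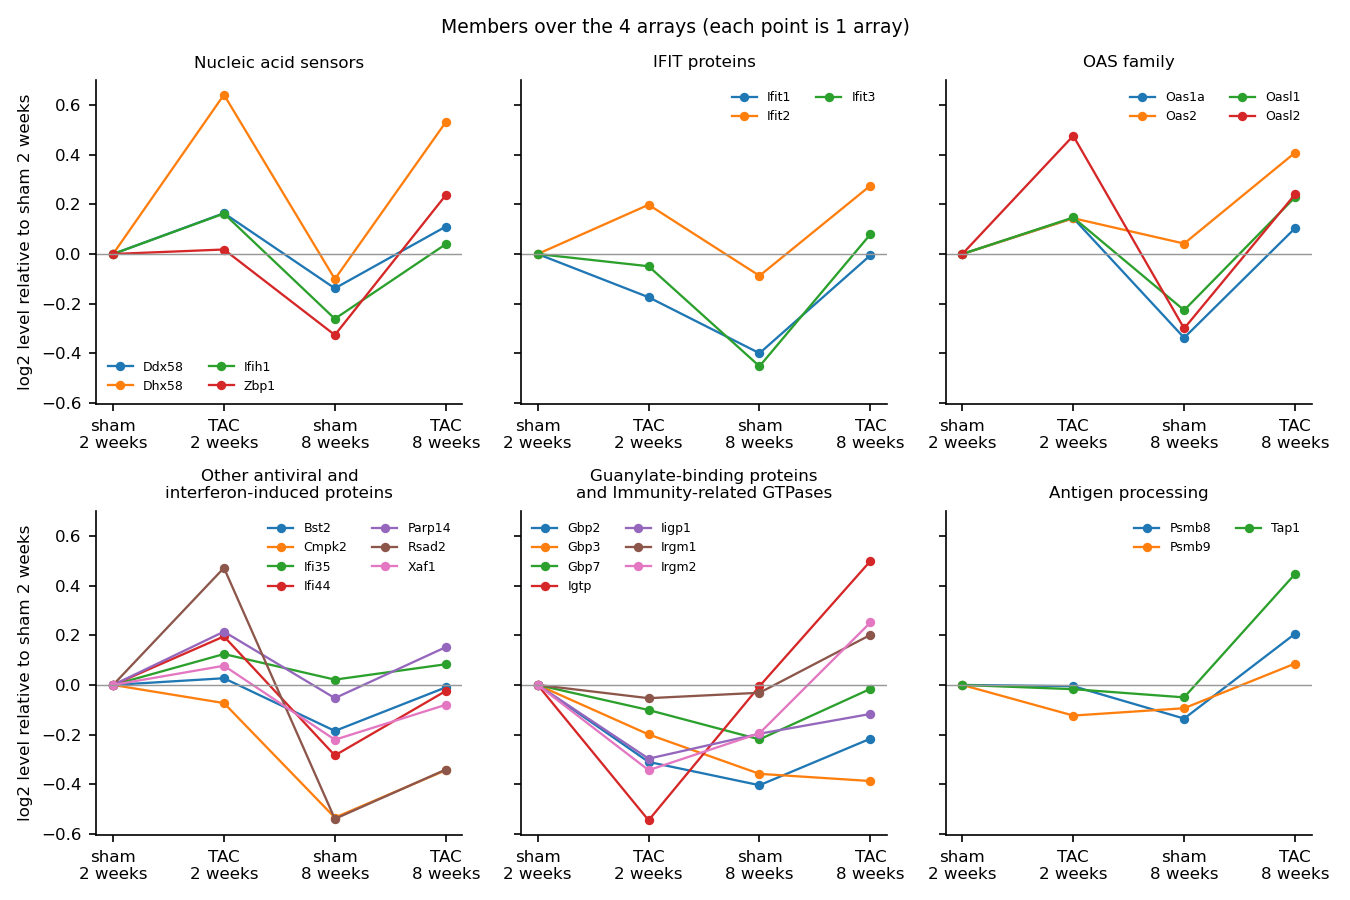
Level of each measured member of 6 role groups on the 4 arrays, on the log2 scale and relative to the sham array at 2 weeks, with 1 point per array. The sensors, the IFIT genes and 3 of the 4 OAS genes (Oas2 excepted) are lower on the sham array at 8 weeks than on that at 2 weeks, while the guanylate-binding and immunity-related GTPases lie below 0 on the TAC array at 2 weeks. Igtp, Irgm2 and Tap1 reach their highest level on the TAC array at 8 weeks.

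Among the other antiviral proteins 6 of 7 were higher at 2 weeks (5 with arrays centred on their median) and all 7 at 8 weeks, with medians of 0.12 and 0.19. The shares of all genes higher at these times were 48.3% and 48.1%. Rsad2 (viperin), which makes a chain-terminating nucleotide that stops viral polymerases, had levels of 2.60 in sham and 3.60 in TAC at 2 weeks, and of 1.79 and 2.05 at 8 weeks. It was the member furthest below its 2-week level between the 2 TAC arrays, at -0.81 (log2), and it differed by -0.54 between the shams. Cmpk2, the neighbouring gene on chromosome 12 that supplies the nucleotide used by Rsad2, differed by -0.53 between the shams and by -0.27 between the TAC arrays, and its change after TAC was -0.07 at 2 weeks. A second Cmpk2 probe gave -0.28, -0.20 and 0.05 for the same 3 differences. The pair thus parted at 2 weeks, where Rsad2 was higher after TAC by 0.47.

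Bst2 (tetherin), which holds budding virus at the cell surface, was higher by 0.03 and 0.18. Ifi44 was higher by 0.20 and 0.26, and Parp14, an ADP-ribosyltransferase, by 0.21 at both times. Ifi35 changed by 0.12 and 0.06, and Xaf1, a factor that favours apoptosis, by 0.08 and 0.14 (0.51 and 0.46 on a second probe). On its brightest probe none of these 5 differed from sham by more than 2 SDs between spots.

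The guanylate-binding proteins and the immunity-related GTPases are 2 families that attack the vacuoles of intracellular microbes. All 7 members from these families were lower after TAC at 2 weeks, with a median of -0.30. Only 2 of the 7, Igtp and Irgm2, were lower by more than 2 SDs between spots. At 8 weeks 6 of 7 were higher (7 with arrays centred on their median or not normalized), with a median of 0.20. At 2 weeks 6 related genes outside the set, given below, had a median of 0.09, with 4 higher and 2 lower. Of all genes 48.3% were higher at 2 weeks and 48.1% at 8 weeks. The other 27 members had medians of 0.09 and 0.32. The split was drawn after the values were seen. The 7 were lower at 2 weeks under each of the 5 other scalings and background corrections tried, all on the same arrays. Median centring, no normalization and the deposited table move all genes of an array alike. They put the 2-week median of all genes at -0.047, -0.011 and 0.019, where the main setting gave -0.007. Such shifts could not reverse even the smallest change of the 7, -0.053 for Irgm1. These settings therefore do not test the split.

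Igtp (Irgm3) had levels of 5.38 in sham and 3.68 in TAC at 2 weeks, and of 5.36 and 7.60 at 8 weeks. The 2 shams were thus alike, and the TAC value lay below them at 2 weeks and above them at 8 weeks, by -0.55 and 0.50 (log2). Between the TAC arrays Igtp differed 2.06-fold, the largest difference of any member in any of the 4 comparisons. Irgm2, which lies 7384 bases away on chromosome 11, took the same course. Its levels were 4.30 and 3.39 at 2 weeks and 3.75 and 5.11 at 8 weeks. Irgm1, the regulator of the family, changed little at 2 weeks (-0.05) and was higher by 0.23 at 8 weeks.

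Iigp1, an effector of the family, changed by -0.30 at 2 weeks and by 0.08 at 8 weeks, and its second probe gave -0.48 and 0.27. Gbp2 had levels of 2.59 and 2.09 at 2 weeks, then of 1.96 and 2.23 at 8 weeks. Gbp7 changed by -0.10 and 0.20. Gbp3 was the only one of the 7 below sham at both times, with changes of -0.20 and -0.03, the latter within spot error and above 0 when arrays were centred on their median or not normalized. Beside these, 6 related genes outside the set (Gbp4, Gbp5, Gbp6, Gbp9, Ifi47 and Tgtp1) had a median of 0.09 at 2 weeks, with 4 higher and 2 lower, and of -0.05 at 8 weeks. None of the 6 differed by more than 2 SDs between spots at 2 weeks. The Gbp6 probes disagreed at 8 weeks, with -0.11 on the brightest and 0.64 on the second.

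The antigen processing genes lie together on chromosome 17. Psmb8 and Psmb9, subunits of the immunoproteasome that trims peptides, and Tap1, which carries peptides to class I molecules, were close to sham at 2 weeks, with changes of -0.0050, -0.12 and -0.02, and 0 to 2 of the 3 were higher depending on the scaling. At 8 weeks they were higher by 0.34, 0.18 and 0.50. Tap1 had levels of 0.304 in sham and 0.300 in TAC at 2 weeks, and of 0.293 and 0.414 at 8 weeks, so that the TAC array at 8 weeks stood alone above the other 3. Its neighbour Psmb9, whose start lies 225 bases away in the opposite direction, had 3.56 and 3.27, then 3.33 and 3.78.

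In all, 13 members were lower at 2 weeks and higher at 8 weeks, compared with 14.9% of all genes, and 19 were higher at both times, compared with 33.3%. The 15 members with a response element core in a promoter window had medians of -0.05 and 0.27, and the 12 with a window but no core of 0.10 and 0.29. Their ranges overlapped widely at both times, from -0.55 to 0.47 and from -0.12 to 0.48 at 2 weeks.

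Ifnb1, the main type I interferon of non-immune cells, and Ifng were not well above background on any array. Of 21 interferon genes listed, 17 had a probe and 10 were measured on all arrays, with medians of -0.10 at 2 weeks and -0.24 at 8 weeks, and the alpha interferons are so alike that their probes may not tell them apart. The receptors were measured. Ifnar1 was higher by 0.31 at 2 weeks and changed by 0.02 at 8 weeks on its brightest probe, and Ifnar2 by 0.06 and 0.00. The dimmer Ifnar1 probes disagreed, the second with 0.74 and -0.07 and the third with -0.05 and 0.46. Ifngr1, the binding chain of the type II receptor, was higher by 0.39 at both times, while Ifngr2 changed by -0.05 and -0.16.

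Downstream, Jak1 changed by -0.18 and 0.19 and Tyk2 by 0.22 and -0.03. Irf9, a partner of Stat2, changed by -0.02 at 2 weeks and was higher by 0.35 at 8 weeks, the same course as the set. Irf3, which is activated without being induced, changed by -0.12 and 0.00. Socs1, a brake on the Janus kinases, changed by 0.14 and 0.00. Of 48 further interferon-stimulated genes measured, 26 were higher at 2 weeks and 38 at 8 weeks, where 48.3% and 48.1% of all genes were. Their medians were 0.07 and 0.16. None of the genes of these pathway lists was over 1.5-fold changed in the same direction at both times.

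Markers of other cells were followed beside the set. Of 15 macrophage markers, 14 were higher after TAC at 2 weeks and 14 at 8 weeks, with medians of 0.44 and 0.40, and Cd14 and Cx3cr1 exceeded 1.5-fold each time. The set had medians of 0.02 and 0.29, and the part of macrophages in its changes was not tested. The summed level of the macrophage markers was 204 and 203 in the shams and 218 and 217 after TAC, most of it from the Itgam probe, and no marker was below background on all arrays. S100a8 and S100a9, carried by neutrophils and some monocytes, were higher by 1.11 and 1.21 at 2 weeks and by 2.17 and 2.00 at 8 weeks. Of the 9 neutrophil markers, 4 were measured on all arrays, 2 higher and 2 lower at 2 weeks and 3 higher and 1 lower at 8 weeks, with medians of 0.53 and 1.03. The list of 9 had summed levels from 275 to 334 with the Csf3r probe making up most of it, and Ngp, Ltf and Cxcr2 were not above background.

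Of 13 T and NK cell markers, 7 were measured on all arrays, with medians of 0.05 and -0.08 and summed levels from 20.3 to 22.9, and Cd3g, Cd8a, Gzmb, Klrb1c and Ncr1 were not above background on any. The 4 of 7 B cell markers measured had medians of 0.14 and 0.06 (sums from 4.02 to 4.69, with Pax5 and Blk below background), and 3 of 4 markers of plasmacytoid dendritic cells, which make type I interferon, had medians of 0.01 and 0.28 (sums from 370 to 443, nearly all from the Siglech probe). Fibroblast markers had medians of 0.89 and 0.75 and sums of 209 and 234 in the shams and 289 and 340 after TAC. Col1a1, Col1a2, Col3a1, Lum and Postn exceeded 1.5-fold at 2 weeks and again at 8 weeks. Endothelial markers had medians of 0.21 and 0.02, smooth muscle markers of 0.03 and 0.19, and cardiomyocyte markers of -0.12 and -0.16. The part of these cells in the changes of the set was not tested.

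**Figure D5:**
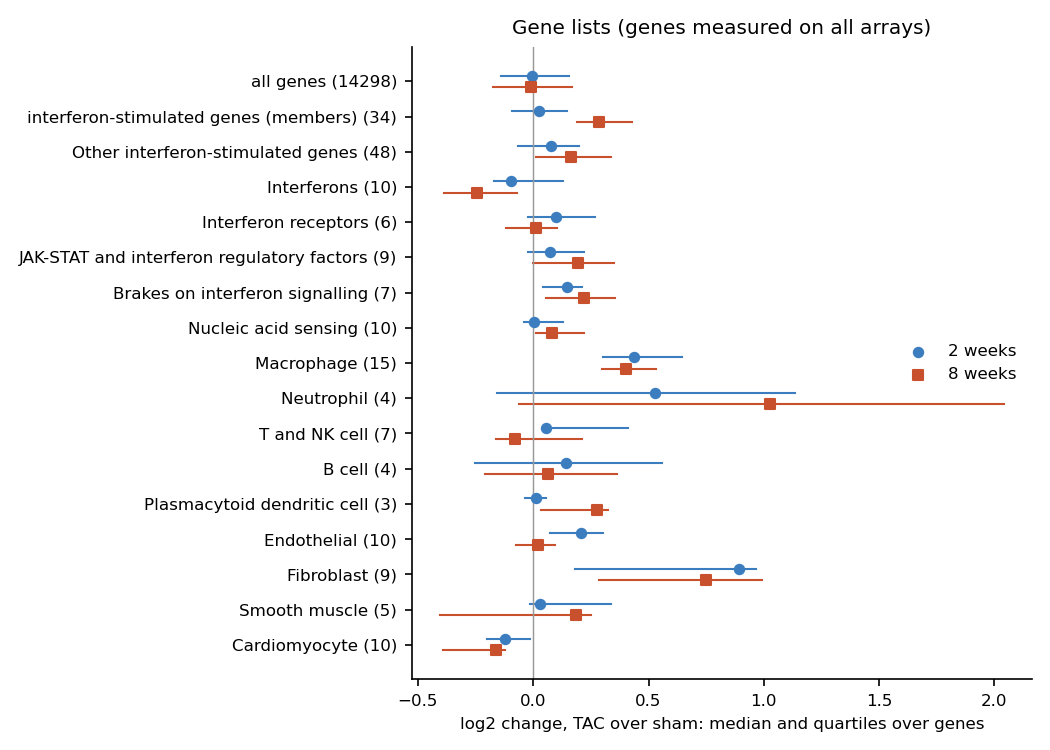
Median (points) and quartiles (bars) of the log2 change, TAC over sham, at 2 weeks (circles) and 8 weeks (squares) for all genes, the members, the interferon pathway lists and the cell type marker lists. The number of genes measured on all arrays stands in brackets. The members lie at 0.02 and then 0.29, while the macrophage and fibroblast markers lie above 0 at both times.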

How the data were processed

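Heart RNA was measured on 4 one-colour Agilent arrays (SurePrint G3 mouse design, Cy3), with 1 array per condition and a pool of mice on each, so no p-value was computed. The deposited scanner files hold processed signals, an intensity from which the software had subtracted background, made with Feature Extraction 9.1 per the labels and 10.7.3.1 per the file headers, and the probe annotation is of mm9. The authors named GeneSpring for their analysis, and its normalization is not given in the sources used here. A series-wide value table was also deposited, and within rounding its values were this intensity times 1 constant per array.

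Control spots and outlier spots were left out, the spots of a probe were averaged as log2, and each array's 75th percentile over 55681 probes was subtracted. Transcript names gave 1 gene for 29501 probes and none for 26180, through RefSeq and GENCODE tables, and 11 members had several probes. A gene counted as higher or lower past 1.5-fold when its brightest probe was well above background, as the software marks it, on the brighter array. Differences were otherwise described where probes were well above background. Calls were tested on simulated data. The members, the gene lists and the cell type markers were chosen with earlier results of these data known. Every member is named, as are listed genes over 1.5-fold in 1 direction at both times and 12 signalling genes whatever their values, of which 1 is not reported here. The members' counts and medians stand beside those of all genes.

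Alternatives were quantile normalization, centring on the array median, no normalization, normexp (offset 50, on median signal and local background, since the files used hold no mean signal), the deposited table, the mean of all probes, the second brightest probe, other filters and a 2-fold threshold. Python 3.11.15 with pandas 2.3.3 and R 4.3.3 with limma 3.58.1 were used. The number of arrays limits the precision.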

Additional observations from a re-analysis of the deposited data

Results flagged for a closer look

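Ifit1, Gbp2, Igtp and Irgm2 moved in opposite directions after TAC at the 2 times, each time by more than the SD between 2 spots of a probe. The log2 changes at 2 and 8 weeks were -0.17 and 0.39 for Ifit1, -0.31 and 0.19 for Gbp2, -0.55 and 0.50 for Igtp, and -0.34 and 0.45 for Irgm2. With 1 array per condition the difference between the times was not tested. For Igtp the 2 sham arrays gave nearly the same level (5.38 and 5.36), whereas for Ifit1 they gave 0.480 and 0.364. The TAC arrays gave 0.426 and 0.478 for Ifit1, and which array its change of sign comes from cannot be told.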

How the results depend on the processing

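The median of the members at 8 weeks was above 0 in TAC over sham under every alternative run, and that between the shams was below 0. The median at 2 weeks, 0.02, turned to -0.015 when arrays were centred on their median. The median of all genes moved with it, from -0.007 to -0.047, and the members stayed 0.032 above it. Without normalization the medians were 0.45 for TAC over sham at 8 weeks and 0.35 between the TAC arrays, where the median of all genes itself shifted by 0.16 and 0.30, and relative to all genes the members kept the same distance. With the other sham array as the reference, an alternative chosen after seeing the data, the medians were 0.25 at 2 weeks and 0.10 at 8 weeks.

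The count of members over 1.5-fold higher at 8 weeks, 1 in the report, was 5 with median centring, 9 without normalization, 2 with the second brightest probe, and 0 with normexp, at 2-fold or with the other sham. At 2 weeks it was 0 with normexp and at 2-fold and 3 with the other sham. The count lower at 2 weeks was 1 with the mean of all probes, through a Psmb9 probe not well above background on any array. Of all genes 63.0% were higher after TAC at 8 weeks with median centring and 74.3% without normalization. The share of all genes past 1.5-fold under the alternatives is not given here, so these counts show no gain of the set. With the array median as the centre 25 of 34 members were higher between the TAC arrays, and 31 without normalization, in place of 19. Of all genes 70.3% and 87.4% were higher under these 2 settings, so the counts moved with the whole array. The dim probe of Oas3 was left out of the medians, and with it they were 0.02 and 0.27. Dhx58 had the lowest signal of the 34 measured members, from 25.9 to 45.1. No paired analysis was possible because each condition has 1 array, and no array could be left out of a condition.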

Other observations

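Of the 48 further interferon-stimulated genes measured, 5 were over 1.5-fold higher after TAC at 8 weeks, compared with 748 of the 14298 genes measured on all arrays. The 5 are named here after their values were seen. Cxcl10, a chemokine that draws T cells, had levels of 0.302 in sham and 0.302 in TAC at 2 weeks and of 0.166 and 0.412 at 8 weeks. The TAC array at 8 weeks gave the highest value and the sham array of that time the lowest. Ccl5, another chemokine, had 0.701 and 0.932, then 0.545 and 1.19. Ciita and Nlrc5, the activators of class II and class I antigen presentation genes, changed by -0.39 and -0.37 at 2 weeks and by 0.67 and 0.60 at 8 weeks, although a second Nlrc5 probe gave -0.33 and -0.21. Ifit3b was the other gene. Socs3, a brake induced by many cytokines, had levels of 1.01 and 1.18 at 2 weeks, then of 0.921 and 2.33 at 8 weeks.

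The probe of Ifnab, an alpha interferon gene, stood out on 1 array. Its levels were 0.212 in sham and 0.949 in TAC at 2 weeks and 0.257 and 0.196 at 8 weeks, a change of 2.16 (log2) at 2 weeks and of -0.39 at 8 weeks. Its second probe was not well above background on any array.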
